A study of Mus musculus with 6 samples.

Results

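The Rab genes of mouse islets were examined in 6 RNA-seq libraries of isolated pancreatic islets from 12-week-old mice. All gene rows whose symbol is Rab followed by a number and at most 1 letter were taken, without Rab27a and Rab27b. This gave 54 Rab genes of the 23284 genes in the files. They were grouped by known site of action into 9 exocytic, 19 endocytic, 15 Golgi and 11 other Rab genes. The knockout group carried Neurod1-floxed/floxed alleles and Rip-Cre+, in which the rat insulin gene promoter drives Cre (libraries 4, 5 and 6). The control group carried the same floxed alleles without Cre (libraries 7, 10 and 16). The labels write the strain of both groups as C56BL/J. Because controls lacked Cre, the deletion and the presence of Cre cannot be told apart, and as separate animals are not stated for the libraries, p-values speak only of the spread among these samples, which may be technical. In bulk islets, fewer cells of a type and less RNA per cell cannot be told apart.

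Rab proteins are small GTPases that act as switches on the membranes of vesicles and organelles. An exchange factor loads a Rab with GTP, the active form recruits effectors that move, tether or fuse a vesicle, and a GTPase activating protein turns it off again. Prenyl groups anchor Rabs in membranes, escort proteins bring them to the prenylating enzyme, and dissociation inhibitors carry them back through the cytosol. Beta cells depend on Rabs for the passage of proinsulin from the endoplasmic reticulum through the Golgi, for granule exocytosis, and for the retrieval of granule membrane.

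Promoter sequence is shown for the called Rab genes that changed most in either direction and had at least 10 CPM (counts per 1e+06 counts, scaled for library composition) in the higher group. These were Rab39 and Rab6a, which were higher in the knockout, and Rab6b and Rab34, which were lower. Each line gives the 250 bases before the first start listed by RefSeq (build GRCm38.p6), on the strand of the gene, with matches to the E-box letters CANNTG, the kind of site that basic helix-loop-helix factors such as Neurod1 bind, in capitals.
Rab39 (chr9:53706233-53706482, minus strand): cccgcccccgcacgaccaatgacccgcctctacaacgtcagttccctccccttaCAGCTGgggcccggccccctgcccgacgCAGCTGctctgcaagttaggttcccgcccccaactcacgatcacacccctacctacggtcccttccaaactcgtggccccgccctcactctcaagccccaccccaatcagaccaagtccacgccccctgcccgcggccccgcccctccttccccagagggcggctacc
Rab6a (chr7:100607336-100607585, plus strand): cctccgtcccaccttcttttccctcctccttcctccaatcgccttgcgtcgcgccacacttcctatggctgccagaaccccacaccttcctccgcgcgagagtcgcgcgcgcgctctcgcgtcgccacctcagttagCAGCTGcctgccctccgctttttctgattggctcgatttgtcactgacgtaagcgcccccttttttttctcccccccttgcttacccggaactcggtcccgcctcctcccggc
Rab6b (chr9:103111824-103112073, plus strand): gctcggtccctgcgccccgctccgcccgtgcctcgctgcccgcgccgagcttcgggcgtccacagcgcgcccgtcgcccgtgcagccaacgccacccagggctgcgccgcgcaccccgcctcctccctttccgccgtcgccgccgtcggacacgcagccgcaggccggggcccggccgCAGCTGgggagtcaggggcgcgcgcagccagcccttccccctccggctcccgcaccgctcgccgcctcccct
Rab34 (chr11:78188177-78188426, plus strand): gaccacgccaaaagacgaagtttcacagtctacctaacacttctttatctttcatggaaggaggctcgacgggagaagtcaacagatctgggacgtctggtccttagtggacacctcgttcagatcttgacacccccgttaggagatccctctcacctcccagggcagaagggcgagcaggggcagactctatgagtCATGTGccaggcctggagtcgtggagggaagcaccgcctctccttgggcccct
The Rab39 window held 2 matches and each of the other windows held 1. All matches in Rab39, Rab6a and Rab6b read CAGCTG, so the same letters stood before genes that were higher and a gene that was lower in the knockout. Rab39 and Rab6a were the only 2 of the 7 higher genes with a listed promoter that held CAGCTG.

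A promoter was listed for 45 of the 54 Rab genes, in 56 windows. CANNTG, searched on both strands, occurred in 62.5% of these windows and in 66.2% of all 32851 promoter windows of the same length. CAGCTG occurred in 14.3% and 13%, and CAGATG, whose other strand reads CATCTG, in 10.7% and 14.4%. Both are special cases of CANNTG. Among Rab genes that passed the test and had a listed promoter, CANNTG was found in any window of 4 of 7 that were higher and 7 of 7 that were lower. It was found for 20 of 30 that did not pass. CAGCTG was found for 2 of 7 that were higher and 4 of 7 that were lower, and CAGATG for 0 of 7 and 3 of 7. These shares were not tested, and no share by gene was computed over all genes. Counted by gene in the same way, CAGCTG was found for 17.8% and CAGATG for 13.3% of the 45 Rab genes, and for 2 of 30 and 3 of 30 that did not pass. A gene with several windows has more chances of a match, and Rab15 has 4 and Rab34 has 2. These matches are letters in a window, and binding was not measured.

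Library totals ranged from 12206393 to 20412435 counts, of which the Rab genes took 0.32% to 0.379%. Neurod1 had 28.4, 29.8 and 31.3 CPM in knockout libraries 4, 5 and 6 and 198, 177 and 141 CPM in control libraries 7, 10 and 16, a log2 fold change of -2.53 (SE 0.13, adjusted p = 1.74e-05 by edgeR's quasi-likelihood test). Of the 10 beta cell markers, 3 were higher (Slc2a2, Pdx1 and Nkx6-1) and 3 lower (Ins1, G6pc2 and Slc30a8). Their sum was 132416 to 149044 CPM in knockout islets and 174707 to 192972 CPM in the control, a gap of about the size of that in Ins1 (4307 CPM on average in knockout islets and 48668 CPM in the control). Ins2 averaged 113090 and 111006 CPM. Some markers of other cells also passed the test (adjusted p under 0.05). For comparison, 24.4% of all genes tested passed in either direction. The shares of these short lists were not tested against it. The summed CPM of 26 acinar markers was 5332 to 15729 in the knockout and 14956 to 53879 in the control, with 2 lower and 0 higher, and Prss1 was at 0 in at least 1 library. The 15 endothelial markers summed to 725 to 854 and 1133 to 1143 CPM, with 10 lower, and the 16 stellate cell and fibroblast markers to 854 to 1179 and 1212 to 1587 CPM, with 4 lower. The 7 alpha cell markers summed to 26730 to 35446 and 37801 to 50923 CPM, with 2 lower and 0 higher. The 10 Schwann cell and neuron markers summed to 91.4 to 143 and 149 to 186 CPM, with 4 lower and 2 higher. The sums of the acinar, delta, PP, duct and leukocyte lists overlapped between the groups.

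The Rab genes split evenly. Of the 54, 52 had enough counts to be tested, and 8 were higher and 8 were lower in knockout islets (adjusted p under 0.05). The higher ones were the Golgi genes Rab6a, Rab39 and Rab1, the endosomal genes Rab4a, Rab22a and Rab5c, and the post-Golgi genes Rab8a and Rab8b. The lower ones were the exocytic genes Rab3b, Rab3c and Rab37, the endosomal genes Rab31, Rab15 and Rab17, and the Golgi genes Rab6b and Rab34. Rab33a and Rab44 were not tested, with at most 5 counts in any library. The 16 called members are 30.8% of the 52, and 24.4% of all 14770 genes tested were called (11.8% higher and 12.6% lower). The CPM of the groups did not overlap for 25 of the 52, against 42.0% of all genes tested. The median log2 fold change was 0.03 over the Rab genes and -0.01 over all genes, and the median size of the log2 change was 0.23 and 0.24. The Rab genes as a set thus stood close to the background. Changes of at least 2-fold among called members were found for Rab6a, Rab39 and Rab17. The authors' deposited table calls 13 of the 16 at an adjusted p under 0.05, each in the same direction, and calls no other member. The 3 it does not call are Rab17, Rab3c and Rab5c. With acinar marker level added to the model, 9 of the 16 passed (Rab17, Rab22a, Rab31, Rab34, Rab39, Rab3b, Rab3c, Rab4a and Rab6a). Over all genes, calls then fell from 1736 to 961 higher and from 1864 to 853 lower. With endothelial level, which cannot be told apart from genotype because the groups do not overlap in it, 1 of the 16 passed (Rab6a). Over all genes, 87 were then higher and 60 lower.

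**Figure D1:**
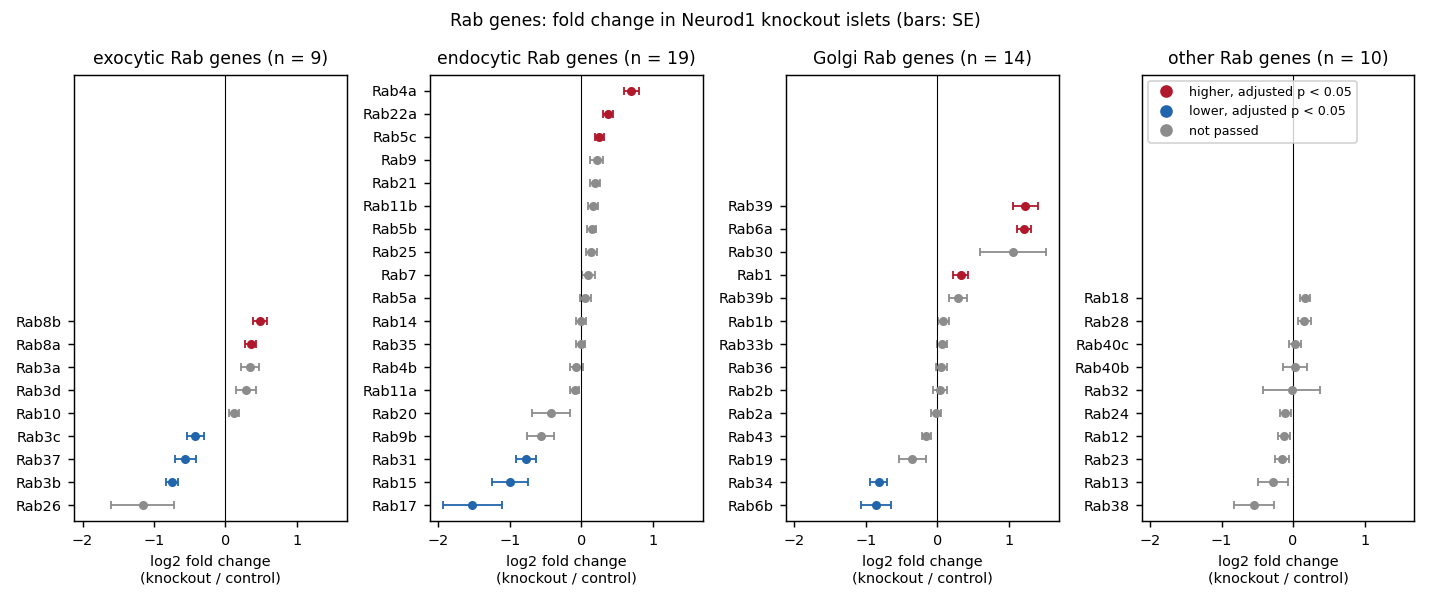
Log2 fold change of knockout over control (x axis) with its standard error for the 52 tested Rab genes, in 4 panels by class. Red points are higher and blue points lower at an adjusted p under 0.05, and grey points did not pass. Calls in both directions are seen among the 9 exocytic, 19 endocytic and 14 Golgi genes, and 0 of the 10 other genes passed.

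The exocytic class had calls in both directions. Of the 9 genes, Rab8a and Rab8b were higher, Rab3b, Rab3c and Rab37 were lower, and Rab3a, Rab3d, Rab10 and Rab26 did not pass. The class median was 0.11. Exocytic genes were called in 55.6% of cases, endocytic genes in 31.6% and Golgi genes in 35.7%, against 24.4% of all genes tested. These are shares of small classes and were not tested against each other or against all genes.

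Rab3b, a Rab of regulated secretory vesicles, had 29.2, 30.8 and 31.7 CPM in the knockout libraries and 46.9, 57.2 and 49.7 CPM in the control libraries. The groups lay well apart, and the spread within the knockout was small (30.6 ± 1.26 CPM against 51.3 ± 5.34 CPM, SD, n = 3 each). Its log2 fold change was -0.75 (SE 0.09, adjusted p = 7.26e-04, edgeR). Its exons overlap 8030443G20Rik by up to 317 bases on the other strand in GENCODE M21. Rab3c, a close relative known from neuronal and endocrine vesicles, had 29.4, 25.1 and 22.5 CPM in knockout islets, against 31.6, 34.2 and 37.5 CPM in control islets. Its highest knockout library lay just under its lowest control library, and the log2 fold change was -0.42 (SE 0.11, adjusted p = 0.0278). Rab3c was not called on leaving out knockout library 5 or 6, or control library 10 or 16, with an adjusted p of 0.0739 to 0.0857. With endothelial marker level as covariate, whose groups do not overlap, the sign of Rab3c turned (0.139, adjusted p = 0.816). Rab37, a Rab of secretory granules, had 62.6, 97.0 and 81.1 CPM in knockout islets, against 124, 115 and 116 CPM in control islets. The knockout libraries were spread widely and all lay below the control, with a log2 fold change of -0.56 (SE 0.14, adjusted p = 0.0274). It was not called when knockout library 6 or control library 7, 10 or 16 was left out (adjusted p between 0.0723 and 0.105), and with acinar marker level as covariate it was at -0.30 (adjusted p = 0.309).

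Rab8a, which brings post-Golgi vesicles to the plasma membrane and the cilium, had 92.1, 87.9 and 80.8 CPM in knockout islets, against 66.6, 66.0 and 71.9 CPM in control islets. No knockout library fell into the control range, and the log2 fold change was 0.35 (SE 0.07, adjusted p = 0.00907). Its paralog Rab8b had 50.4, 42.9 and 47.0 CPM in knockout islets, against 29.3, 35.8 and 35.1 CPM in control islets. These groups did not overlap either, with a log2 fold change of 0.49 (SE 0.10, adjusted p = 0.00882). With acinar marker level as covariate, Rab8a was at 0.23 (adjusted p = 0.165) and Rab8b at 0.31 (adjusted p = 0.175).

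The abundant exocytic genes that did not pass were Rab3d, Rab10 and Rab3a. Rab3a, the Rab3 of synaptic vesicles and insulin granules, had 131, 127 and 101 CPM in knockout islets, against 97.9, 81.7 and 104 CPM in control islets. Knockout library 6 lay inside the control range, and the log2 difference of 0.34 (SE 0.12) did not pass (adjusted p = 0.0757). It passed with DESeq2 (0.36, adjusted p = 0.0295) and without knockout library 6 (0.47, adjusted p = 0.0206). Rab3d, which is also a zymogen granule Rab of acinar cells, had 194, 219 and 176 CPM in knockout islets, against 193, 136 and 154 CPM in control islets (log2 difference 0.29, SE 0.14, adjusted p = 0.170). Control library 7 reached into the knockout range, and without it Rab3d passed (0.45, adjusted p = 0.0357). The acinar sum was highest in control libraries 7 and 10, which had the highest and the lowest Rab3d of the control. A part of acinar RNA in the Rab3d values was not tested. Rab10, a Rab of vesicle delivery to the plasma membrane, differed by 0.11 (SE 0.07, adjusted p = 0.275). Rab26, another acinar granule Rab singled out after its values were seen, had 0.614, 1.34 and 0.964 CPM in knockout islets, against 3.25, 1.96 and 1.24 CPM in control islets (-1.16, SE 0.44, adjusted p = 0.0882). Rab26 had only 10 to 63 counts per library. With acinar marker level as covariate its log2 difference was 0.04 (adjusted p = 0.968), and the part of acinar RNA was not tested.

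Scaled by exon length, Rab3a and Rab3d were the main Rab3 genes in both groups, and the share of Rab3b and Rab3c was smaller in the knockout. Levels were divided by the length of the coding transcripts' exons in GENCODE M21, a GRCm38 annotation, while the counts were made on mm9, so they are approximate. Of the summed CPM per kb of the 4 Rab3 genes, Rab3b held 7.13 ± 1.05% in the knockout and 13.7 ± 2.80% in the control (SD, n = 3 each). Rab3c held 2.25 ± 0.22% and 3.46 ± 0.46%, Rab3a held 52.0 ± 2.28% and 46.9 ± 2.80%, and Rab3d held 38.6 ± 1.81% and 36.0 ± 3.78%. The shares of Rab3b and Rab3c did not overlap between the groups, whereas those of Rab3a and Rab3d did.

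The endocytic class had calls in both directions and many members near 0. Of the 19 genes, Rab4a, Rab22a and Rab5c were higher, Rab31, Rab15 and Rab17 were lower, and 13 did not pass. The class median was 0.06.

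Rab4a, which drives fast recycling from early endosomes, had 27.3, 31.6 and 25.1 CPM in knockout islets, against 17.6, 17.8 and 16.4 CPM in control islets. Every knockout library was well above the narrow control range, a 1.62-fold difference (log2 fold change 0.70, SE 0.11, adjusted p = 0.00231). Its paralog Rab4b did not pass (-0.07, adjusted p = 0.603). Rab22a, a Rab of early endosomes and of recycling tubules, had 69.4, 73.3 and 65.2 CPM in knockout islets, against 52.3, 57.4 and 50.8 CPM in control islets (0.37, SE 0.08, adjusted p = 0.00852). The groups did not overlap. Rab5c, one of the Rab5 proteins that govern early endosome fusion, had 115, 109 and 108 CPM in knockout islets, against 89.4, 91.3 and 97.7 CPM in control islets. The difference was small but free of overlap (0.25, SE 0.06, adjusted p = 0.0222), and it was not called when knockout library 4 or control library 7 or 10 was left out (adjusted p between 0.0676 and 0.0792). With acinar marker level as covariate Rab5c was at 0.14 (adjusted p = 0.323).

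Rab31, which works between the trans-Golgi network and endosomes, had 31.4, 21.5 and 26.4 CPM in knockout islets, against 40.5, 49.8 and 45.2 CPM in control islets. All knockout libraries were below all control libraries (-0.77, SE 0.14, adjusted p = 0.00617). The stromal and endothelial marker sums given above were lower in the same libraries, and their part was not tested. With the acinar level as a covariate Rab31 passed, and with the endothelial level, whose groups do not overlap, it was at -0.66 (adjusted p = 0.475). Rab15, a Rab of early and recycling endosomes known from neurons, had 3.01, 4.15 and 2.81 CPM in knockout islets, against 7.85, 7.31 and 4.73 CPM in control islets (-0.997, SE 0.252, adjusted p = 0.0210). Control library 16 was close to the knockout. Rab15 was not called when knockout library 4 or 6 or control library 7 or 10 was left out (adjusted p between 0.0646 and 0.0809) and was at -0.41 with the acinar covariate (adjusted p = 0.430). Rab17, a Rab of epithelial transcytosis, was scarce, with 0.921, 0.402 and 0.482 CPM in knockout islets, against 1.24, 2.11 and 1.99 CPM in control islets (-1.53, SE 0.41, adjusted p = 0.0277). It was not called on leaving out knockout library 5 or 6, or control library 10 or 16, with an adjusted p of 0.0773 to 0.103.

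The 13 endocytic genes that did not pass ranged from -0.57 to 0.21 on the log2 scale. They were Rab4b, Rab5a, Rab5b, Rab7, Rab9, Rab9b, Rab11a, Rab11b, Rab14, Rab20, Rab21, Rab25 and Rab35. The most abundant were Rab14, of endosome to Golgi traffic (186 ± 11.2 CPM in knockout islets, against 186 ± 4.84 CPM in control islets), Rab11a, of recycling endosomes (103 ± 3.62 and 110 ± 5.17 CPM), and Rab5a (89.9 ± 6.43 and 86.5 ± 6.03 CPM, SD, n = 3 each). Their log2 differences were within 0.10 of 0 (adjusted p from 0.318 to 0.976). Rab9b, singled out after its values were seen, had 4.30, 5.90 and 5.22 CPM in knockout islets, against 8.78, 7.21 and 6.86 CPM in control islets. It lay just outside the threshold (-0.57, SE 0.18, adjusted p = 0.0519), although its groups did not overlap. Rab9b passed with upper-quartile scaling (-0.60, adjusted p = 0.0418) and with limma-voom (-0.59, adjusted p = 0.0498).

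Rab6a stood out in the Golgi class. This Rab governs traffic within the Golgi, back to the endoplasmic reticulum, and out of the trans-Golgi network. It had 523, 507 and 418 CPM in the knockout libraries and 207, 217 and 201 CPM in the control libraries. Even the lowest knockout value was far above the highest control value. It averaged 482 ± 56.6 CPM in knockout islets, against 208 ± 8.00 CPM in control islets (SD, n = 3 each), a 2.32-fold difference (log2 fold change 1.21, SE 0.10, adjusted p = 9.23e-05). Rab6a passed under all 15 alternative settings, and its log2 fold change stayed between 1.17 and 1.68. In GENCODE M21 its exons overlap those of Mrpl48 on the other strand by up to 403 bases, and the use of strand in counting is not given. Mrpl48 had 18.3 ± 1.86 CPM in knockout islets, against 15.4 ± 1.93 CPM in control islets and did not pass (0.26, adjusted p = 0.167).

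Rab6a also set most of the shift in the total. All 54 Rab genes together took 3829, 3829 and 3428 CPM in knockout islets, against 3272, 3206 and 3284 CPM in control islets. The groups were apart by 441 CPM on average. Without Rab6a the sums were 3306, 3322 and 3011 CPM in knockout islets, against 3065, 2989 and 3084 CPM in control islets, which overlapped. The Golgi class summed to 1602, 1586 and 1378 CPM in knockout islets, against 1173, 1154 and 1182 CPM in control islets. Without Rab6a the Golgi sums were 1080, 1078 and 961 CPM in knockout islets, against 966, 937 and 981 CPM in control islets, and overlapped. The summed exocytic, endocytic and other classes overlapped between the groups. Per kb of exon, Rab6a was first among the 54 in the knockout (141 ± 16.5 CPM per kb) and below 3 other Rab genes in the control (60.7 ± 2.33 CPM per kb), where Rab2a led (128 ± 4.72 CPM per kb), followed by Rab1 (103 ± 4.57) and Rab1b (61.7 ± 2.03). In the knockout the ranges of Rab6a, Rab1 (130 ± 17.1 CPM per kb) and Rab2a (126 ± 5.74) overlapped, although Rab6a was above both others within each library. In the control Rab1b and Rab6a changed order between libraries.

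Rab39, a Golgi-associated Rab also linked to endocytosis, had 12.0, 12.5 and 14.6 CPM in knockout islets, against 6.87, 5.20 and 4.46 CPM in control islets. The groups did not overlap, and the 2.35-fold difference (1.23, SE 0.18, adjusted p = 0.00188) matched that of Rab6a in size at a far lower level. Rab1, the Rab of transport from the endoplasmic reticulum to the Golgi, had 409, 377 and 314 CPM in knockout islets, against 300, 277 and 298 CPM in control islets (0.33, SE 0.10, adjusted p = 0.0484). Knockout library 6 was only a little above control library 7, and the call was fragile. It was lost with edgeR without robust estimation, upper-quartile scaling or limma-voom (adjusted p from 0.0562 to 0.0581), on leaving out knockout library 4 or 5, or any control library (0.0873 to 0.154), and with the acinar covariate (0.21, adjusted p = 0.425).

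Rab6b, the Rab6 paralog best known from neurons, had 9.09, 13.6 and 13.4 CPM in knockout islets, against 19.2, 18.2 and 27.9 CPM in control islets. It was lower in every knockout library (-0.85, SE 0.21, adjusted p = 0.0237), and missed the threshold without knockout library 4 (-0.67, adjusted p = 0.0539) or 6 (-0.92, adjusted p = 0.0539). With acinar marker level as covariate it was at -0.97 (adjusted p = 0.113). Of the 10 Schwann cell and neuron markers, 4 were lower in the same libraries as Rab6b, Rab3c and Rab15. In those libraries 2 were higher and the others did not pass, so members of the list moved in both directions. The part of these cells in the results was not tested. Rab34, a Rab of the Golgi and of cilium formation, had 12.0, 12.7 and 13.9 CPM in knockout islets, against 23.9, 19.5 and 24.8 CPM in control islets. The groups were clearly apart (-0.82, SE 0.12, adjusted p = 0.00199), and the endothelial and stromal marker sums were lower in the same libraries, with a part in the result that was not tested. It passed without each single library and with the acinar covariate, and was at -1.06 with the endothelial covariate (adjusted p = 0.183).

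The other 9 tested Golgi genes did not pass. Rab2a, which acts between the endoplasmic reticulum and the Golgi, had 269 ± 12.2 CPM in knockout islets, against 273 ± 10.1 CPM in control islets (-0.02, SE 0.07, adjusted p = 0.881). Rab1b had 131 ± 11.3 and 124 ± 4.07 CPM (0.08, SE 0.08, adjusted p = 0.467), and Rab39b 65.5 ± 8.30 and 53.8 ± 7.0 CPM (0.29, SE 0.12, adjusted p = 0.124, SD, n = 3 each). Rab39b passed without knockout library 6 (0.40, adjusted p = 0.0426). Rab2b, Rab19, Rab30, Rab33b, Rab36 and Rab43 completed the class. The class median was 0.06.

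**Figure D2:**
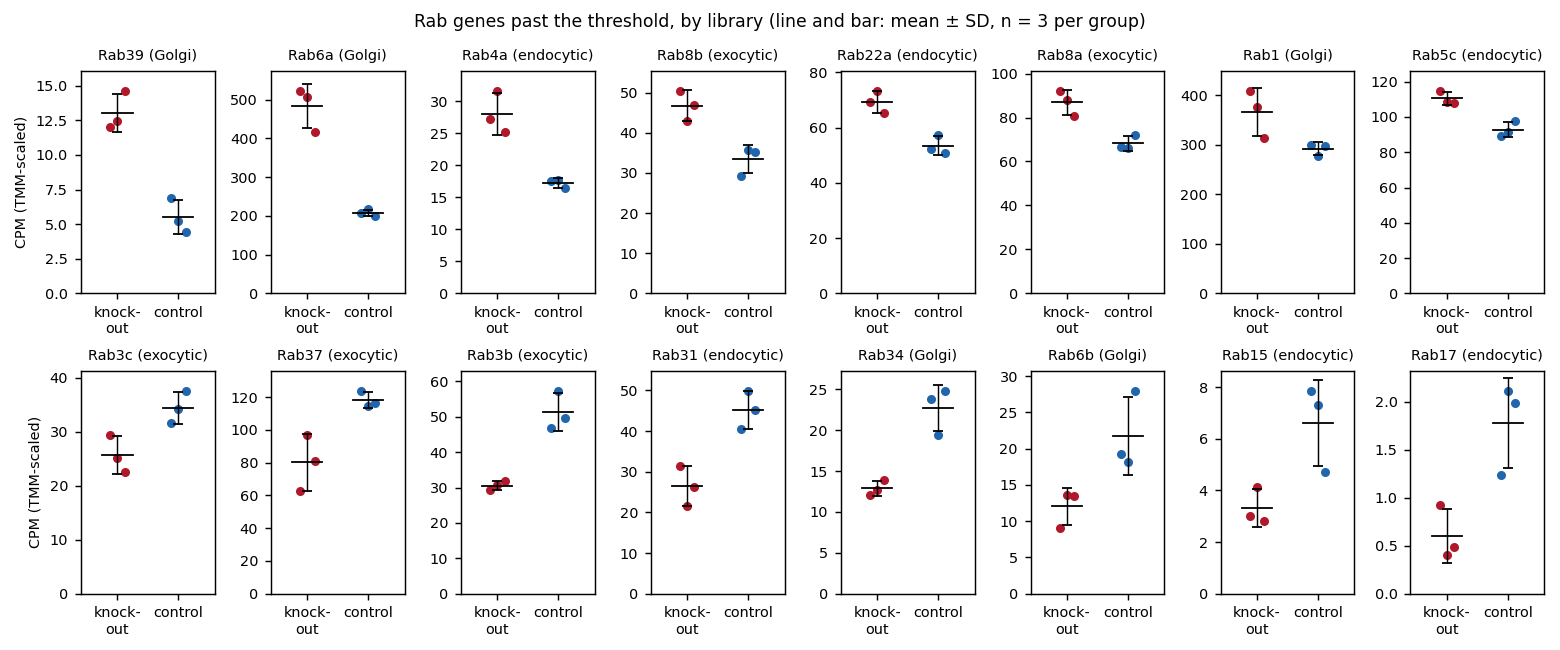
CPM (y axis, from 0) of the 16 Rab genes past the threshold in each knockout and control library, with lines and bars for the mean and SD of 3 libraries. The top row holds the 8 higher genes and the bottom row the 8 lower genes, and in each panel the groups do not overlap.

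None of the 10 tested genes outside these classes passed edgeR's test at an adjusted p under 0.05. The count was also 0 at an unadjusted p under 0.05, with DESeq2 and with limma-voom. They were Rab12, Rab13, Rab18, Rab23, Rab24, Rab28, Rab32, Rab38, Rab40b and Rab40c, and ranged from -0.55 to 0.16. The most abundant was Rab18, a Rab of the endoplasmic reticulum and lipid droplets, with 146, 153 and 132 CPM in knockout islets, against 129, 125 and 131 CPM in control islets. These groups did not overlap by a narrow margin (0.16, SE 0.07, adjusted p = 0.136), and Rab18 passed without knockout library 6 (0.24, adjusted p = 0.0494). Rab28, a Rab of cilia, differed by 0.16 (adjusted p = 0.244) and Rab12, which directs receptors to degradation, by -0.13 (adjusted p = 0.273).

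Differences between paralogs did not pass a test at this sample size. For 18 pairs of tested Rab genes that share a number, the ratio of their CPM was compared between the groups. The ratio did not overlap between groups for 10 pairs, and for each of these the 2-sided exact permutation p was 0.1, the smallest that 3 against 3 allows (0.18 after Benjamini-Hochberg adjustment over the 18 pairs). For comparison, the CPM of single genes did not overlap for 42.0% of all genes tested, and no share was computed over other gene pairs. The Rab6a to Rab6b ratio was 56.9, 37.0 and 30.9 in knockout islets, against 10.7, 11.9 and 7.17 in control islets, the widest gap of the 18. The Rab3a to Rab3b ratio was 4.46, 4.13 and 3.18 in knockout islets, against 2.08, 1.43 and 2.09 in control islets. The Rab4a to Rab4b ratio was 0.848, 0.985 and 0.781 in knockout islets, against 0.473, 0.535 and 0.537 in control islets. The Rab8a to Rab8b ratio overlapped, with 1.83, 2.05 and 1.72 in knockout islets, against 2.27, 1.84 and 2.04 in control islets, as did the ratios among the Rab5 genes.

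**Figure D3:**
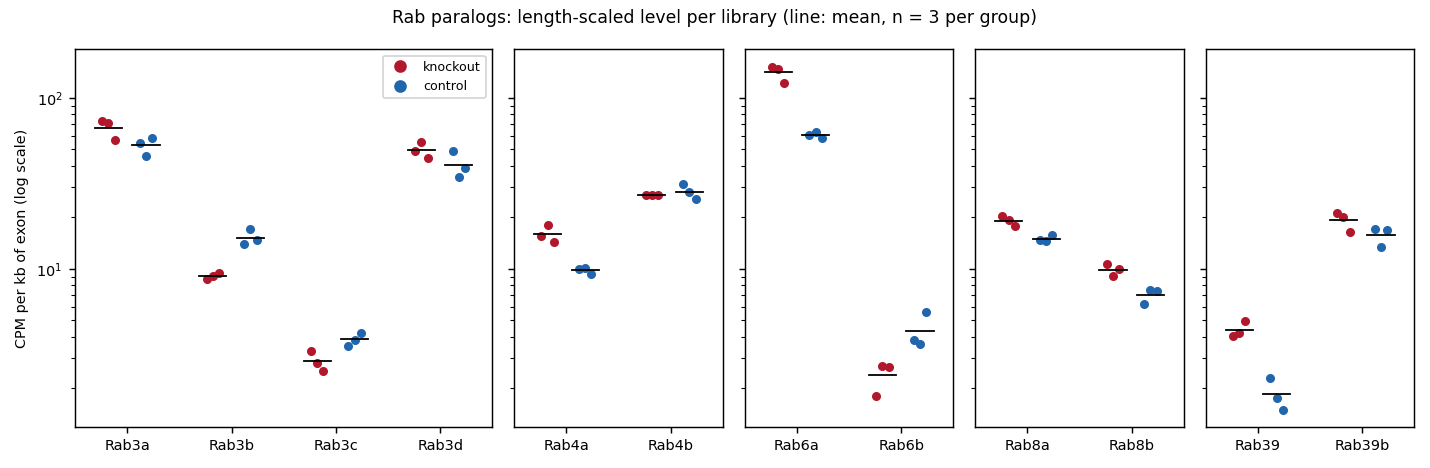
CPM per kb of exon (y axis, log scale) of 5 groups of Rab paralogs in each library, with knockout in red left of control in blue and a line at the mean of 3 libraries. Rab6a and Rab6b lie apart in opposite directions, and Rab3b and Rab3c lie lower in the knockout while Rab3a and Rab3d overlap between groups.

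The genes that act on Rabs also split. A list of 145 regulators and effectors had 140 tested members, of which 23 were higher, 20 lower and 97 did not pass. This is 30.7% called, against 24.4% of all genes, and the median log2 fold change was 0.02. With acinar marker level in the model 14 were higher and 6 lower, and with endothelial level 1 and 0. Over all genes these counts were 961 and 853 with acinar level, and 87 and 60 with endothelial level. The list holds 9 genes of prenylation and recycling, 41 exchange factors, 37 GTPase activating proteins and 58 effectors.

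Chml, a Rab escort protein that presents new Rabs to the prenylating enzyme, had 61.2, 48.0 and 50.5 CPM in knockout islets, against 17.1, 17.7 and 17.2 CPM in control islets. The knockout libraries were all far above a tight control, a 3.08-fold difference (log2 fold change 1.62, SE 0.10, adjusted p = 3.06e-05), which passed under all 15 alternative settings. Its paralog Chm differed by 0.03 and did not pass. Icmt, which methylates prenylated proteins, was higher by 0.49 (SE 0.08, adjusted p = 0.00285), and Gdi2, a dissociation inhibitor that takes Rabs off membranes, by 0.26 (SE 0.07, adjusted p = 0.0238). Gdi2 was not called when knockout library 4 or 5 or control library 7, 10 or 16 was left out (adjusted p between 0.0521 and 0.0915). The subunits of the prenylating enzyme, Rabggta and Rabggtb, did not pass. In all, 3 of the 9 genes were higher and 0 lower.

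Rph3al, the effector Noc2 that binds Rab3 and Rab27 on secretory granules, had 17.6, 17.6 and 17.3 CPM in knockout islets, against 62.3, 51.5 and 69.4 CPM in control islets. The knockout libraries were nearly equal and far below the control, a 3.49-fold difference (log2 fold change -1.80, SE 0.11, adjusted p = 3.01e-05). Rph3al passed under every alternative except the endothelial covariate (-1.66, adjusted p = 0.0748). Of the 54 effectors tested, 8 were higher and 10 lower. Besides Rph3al, the lower ones with the smallest p were the Rab5 effector Appl2 (-0.54, SE 0.09), the Rab11 effector Rab11fip1 (-0.51, SE 0.09) and Plekhm2 (-0.29, SE 0.07). Of the called effectors, 2 changed at least 2-fold. They were Rph3al and another lower gene, which was not among those with the smallest p. The higher ones with the smallest p were the exocyst subunit Exoc6b (0.47, SE 0.07), the active zone gene Rims3 (0.68, SE 0.12), the Rab11 motor Myo5b (0.39, SE 0.08) and the endosomal effector Rufy1 (0.30, SE 0.06). Rims3 was listed together with the other Rims genes, and whether it binds a Rab itself was not examined. Plekhm2 was not called when knockout library 4 or 5 or control library 7 or 10 was left out (adjusted p between 0.0519 and 0.0800).

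Of the 40 exchange factors tested, 5 were higher and 6 lower. The lower ones with the smallest p were Als2cl (-0.83, SE 0.14), the Rab5 exchange factor Rin2 (-0.68, SE 0.12), Dennd2a (-0.59, SE 0.13) and Hps4 (-0.44, SE 0.11). The higher ones were led by Sbf2 (0.30, SE 0.07), the Rab35 exchange factor Dennd1b (0.37, SE 0.09), Gapvd1 (0.25, SE 0.06) and the TRAPP subunit Trappc6b (0.24, SE 0.07). Hps4, Sbf2, Dennd1b, Gapvd1 and Trappc6b each missed the threshold without at least 2 single libraries (highest adjusted p = 0.0654, 0.0612, 0.0626, 0.0622 and 0.111). Of the 37 GTPase activating proteins, 7 were higher and 4 lower. Rabgap1l (0.53, SE 0.06), Sgsm2 (0.42, SE 0.07), Evi5 (0.45, SE 0.08) and the Rab5 regulator Usp6nl (0.45, SE 0.08) were higher. Sgsm3 (-0.45, SE 0.08), Tbc1d9 (-0.37, SE 0.07), Tbc1d2b (-0.33, SE 0.08) and Tbc1d24 (-0.37, SE 0.11) were lower, the last 2 with 4 single libraries whose removal lost the call (highest adjusted p = 0.0733 and 0.138).

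**Figure D4:**
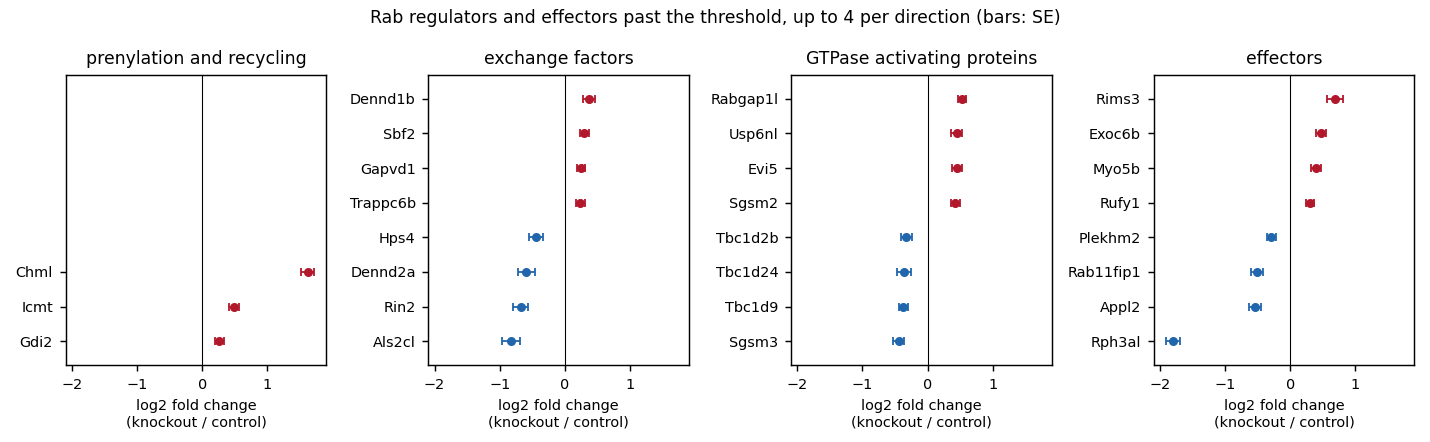
Log2 fold change of knockout over control (x axis) with its standard error for regulators and effectors past the threshold, up to 4 per direction, in 4 panels by role. Chml (1.62) and Rph3al (-1.80) lie farthest from 0.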

How the data were processed

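For every library the authors deposited raw counts by gene, as whole numbers. Their deposited comparison table holds p-values, the ratio of the group means with its log2, and the means themselves as scaled signal. Per the labels' protocols, TruSeq libraries were sequenced as single-end reads of 100 bp. Per the submitters' processing notes, the tools were TopHat2 2.1.0, Cufflinks 2.0.2, DESeq and bcl2fastq 1.8.4, with build mm9. The sources used here do not name the counting program, its annotation or whether strand was used.

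Groups follow the sample labels. For the tests, edgeR 4.0.16 was run in R 4.3.3: filterByExpr (minimum count 10, minimum total 15) kept 14770 of 23284 genes, TMM factors were 0.988 to 1.021, and groups were compared by the robust quasi-likelihood test, with p adjusted over all genes tested (Benjamini-Hochberg) and a threshold of 0.05. All adjusted p-values of genes are from it unless another tool is named. Alternatives used DESeq2 1.42.0, limma 3.58.1 (voom), other scalings and filters, single libraries left out, and acinar or endothelial marker level as a covariate. Exact permutation tests used SciPy 1.17.1.

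The members, classes and lists were chosen with earlier results of these data known. Named were Neurod1, all called members, the 3 most abundant uncalled members of each class, and up to 4 regulators per sublist and direction with the smallest p. Of 145 regulators 3 symbols (Ric1, Rbsn and Bicdl1) were not matched and 2 (Rims4 and Rph3a) had too few counts. Exon lengths and promoters were matched by symbol, Rab1 as Rab1a.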

Additional observations from a re-analysis of the deposited data

How the results depend on the processing

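No paired analysis was possible because the knockout and control libraries share no replicate number. Leaving out 1 library at a time gave 1153 to 1590 genes higher and 1225 to 1433 lower over all genes, and 6 to 11 and 3 to 6 among the Rab genes. The exocytic class then had 2 to 3 higher and 1 to 3 lower, the endocytic class 2 to 3 and 1 to 2, the Golgi class 2 to 4 and 1 to 2, the other class 0 to 1 higher, and regulators and effectors 14 to 19 and 9 to 20. Class medians then ran from 0.0767 to 0.1824 (exocytic), 0.0048 to 0.1248 (endocytic), 0.0185 to 0.1185 (Golgi) and -0.1046 to -0.0481 (other). Of the 16 called Rab genes, 9 were called without each single library.

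Adding acinar level as covariate gave 961 higher and 853 lower genes, among them 4 and 5 Rab genes, with 0 exocytic genes higher, 1 Golgi gene lower, and 14 and 6 regulators and effectors. With endothelial level, which does not overlap between the genotypes and so cannot be told apart from them, 87 were higher and 60 lower. Of these 1 and 0 were Rab genes (Rab6a, a Golgi gene), with 0 exocytic and 0 endocytic genes in either direction, and 1 and 0 were regulators and effectors. Medians were 0.3581 (exocytic), 0.173 (endocytic), 0.1568 (Golgi) and 0.0418 (other) with endothelial level, 0.1218 (Golgi) and -0.1509 (other) with acinar level, 0.0897 (endocytic) and 0.1006 (Golgi) with no filter, and -0.1151 (other) with limma-voom.

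Signs turned under some alternatives, for genes near 0 and also for Rab3c and Rab26. Rab14 was at 0.0107 with RLE factors, 0.0125 with DESeq2, 0.0306 with no filter, 0.0054 with at least 1 CPM in 3 libraries, 0.2168 with endothelial level, and -0.0326 to 0.05 over the libraries left out (above 0 without knockout library 5 or 6 or control library 10). Rab2a was at 0.0167 with no filter, 0.1929 with endothelial level, and -0.0392 to 0.0339 over the libraries left out (above 0 without knockout library 6 or control library 10). With endothelial level Rab11a was at 0.0272, Rab12 at 0.0337 and Rab3c at 0.139, and with acinar level Rab28 was at -0.0018 and Rab26 at 0.0428. Without a covariate Rab3c, a called gene, was at -0.42 and Rab26 at -1.16. The cause was not tested. Counting depth limits scarce genes such as Rab17 and Rab26, below 5 CPM in every library.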
